A study of Mus musculus with 24 samples.

Results

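The genes described here are 37 interferon response genes, taken as a list of symbols and followed across 4 inbred mouse strains and 2 diets in subcutaneous inguinal fat. Of the 37 listed genes, 36 were matched by symbol among the 37991 genes of the count table, and all 36 passed the filter on low counts. Psmb9, an immunoproteasome subunit, was not matched and has no value here. Gene expression was measured by RNA-seq of poly(A) RNA in 24 female mice aged 26 weeks, with 3 mice in each of 8 groups. The strains were C57BL/6J, the common reference strain, NZO/HiLtJ, an obesity-prone strain, and the wild-derived strains CAST/EiJ and WSB/EiJ. In each strain 3 mice ate the standard diet, with 17% of energy from fat. The other 3 ate a diet rich in fat and sucrose, here called high-fat, in which fat gave 45% of the energy and sucrose made up 34% of the weight. Feeding began at 4 weeks of age.

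Interferons are secreted proteins that cells release when sensors such as Ifih1 (MDA5) detect foreign or misplaced nucleic acid. Type I interferon acts through its receptor and the kinases Jak1 and Tyk2 to activate a complex with Stat2 and Irf9, which binds interferon-stimulated response elements. Interferon gamma acts at gamma-activated sites and through Irf1. The induced genes encode antiviral effectors, among them the oligoadenylate synthetases (Oas), the Ifit and Mx proteins and viperin (Rsad2), as well as the guanylate-binding proteins (Gbp), the immunity-related GTPases (Irgm, Igtp, Iigp1) that act on pathogen vacuoles, and proteasome subunits for antigen processing.

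Promoter sequences show what many of these genes have in common at the level of DNA. The 7 printed here are examples, each with a match to at least 1 of the cores defined below. The letters are the reference mouse genome (RefSeq, GRCm38.p6), 150 bases immediately before the annotated start, read 5′ to 3′ on the strand of the gene. Capitals mark matches to the core of the interferon-stimulated response element, GAAA, any 2 bases, GAAA, on either strand, or to the core of the gamma-activated site, TTC, any 3 bases, GAA, which reads the same on both strands. Overlapping matches run together as 1 stretch of capitals.
Isg15: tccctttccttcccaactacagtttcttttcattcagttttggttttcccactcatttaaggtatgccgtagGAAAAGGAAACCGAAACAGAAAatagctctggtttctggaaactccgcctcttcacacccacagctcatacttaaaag
Ifit1: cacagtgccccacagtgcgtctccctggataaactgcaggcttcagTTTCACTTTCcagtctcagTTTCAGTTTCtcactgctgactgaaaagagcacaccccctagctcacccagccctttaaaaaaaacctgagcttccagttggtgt
Oas1a: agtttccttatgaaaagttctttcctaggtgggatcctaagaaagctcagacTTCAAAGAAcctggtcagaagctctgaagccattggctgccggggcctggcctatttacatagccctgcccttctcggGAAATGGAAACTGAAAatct
Rsad2: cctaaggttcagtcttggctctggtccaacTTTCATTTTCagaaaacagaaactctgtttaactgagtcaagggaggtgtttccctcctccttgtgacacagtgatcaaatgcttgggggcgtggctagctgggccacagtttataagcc
Igtp: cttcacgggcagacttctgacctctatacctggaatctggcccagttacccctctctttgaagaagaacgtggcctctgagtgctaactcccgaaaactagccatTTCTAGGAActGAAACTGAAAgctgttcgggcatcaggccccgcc
Irgm2: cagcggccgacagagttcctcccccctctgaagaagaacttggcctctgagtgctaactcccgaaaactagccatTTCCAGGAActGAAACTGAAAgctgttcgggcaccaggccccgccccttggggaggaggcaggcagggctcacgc
Irf1: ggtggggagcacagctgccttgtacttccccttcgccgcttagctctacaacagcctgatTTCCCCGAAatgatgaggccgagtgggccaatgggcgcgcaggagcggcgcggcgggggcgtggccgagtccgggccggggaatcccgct
They lie on the minus strand at chr4:156200819-156200968 (Isg15), chr5:120907526-120907675 (Oas1a) and chr12:26456453-26456602 (Rsad2). On the plus strand they lie at chr19:34640739-34640888 (Ifit1), chr11:58199406-58199555 (Igtp), chr11:58214827-58214976 (Irgm2) and chr11:53769864-53770013 (Irf1). Isg15, a ubiquitin-like protein attached to other proteins, had 3 overlapping matches to the response element core. Ifit1, which binds foreign RNA ends, had 2 separate ones. Igtp and Irgm2, neighbouring immunity-related GTPases, each had both cores, and their windows shared an identical run of 61 bases. Irf1, an early transcription factor of the interferon gamma response, had the gamma-activated core and no match to the other.

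RefSeq windows, which span 250 bases before to 50 after the start, were found for 28 of the 37 genes. The response element core occurred in 16 of the 28 (57.1%) and in 3.99% of the 27025 genes with a window. The gamma-activated core occurred in 9 of the 28 (32.1%) and in 9.55% of all genes. Both cores occurred in 5 genes and neither in 8, among them Irf7, Ifi44, Oasl1 and Oasl2, which are not printed. The 5 large GTPases with a window (Gbp2, Gbp3, Irgm1, Irgm2 and Igtp) all had the response element core. The letters come from 1 reference strain and describe no difference between the strains studied.

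Levels are given in CPM, a gene's counts relative to the total of its library, with the totals scaled by trimmed means. Library totals ran from 47651641 to 84009032 counts. Summed transcripts of 7 adipocyte markers ran from 8437 to 23966 CPM over the unscaled total in 23 libraries but reached only 223 CPM in 1 library, CAST/EiJ high-fat replicate 1. In that library 5 smooth muscle markers summed to 10477 CPM and 7 epithelial markers to 828 CPM. Epcam, an epithelial surface protein, was at 175 CPM there. It was at 5 CPM or more in 5 other libraries, namely replicate 1 of C57BL/6J high-fat, replicate 3 of WSB/EiJ standard and all 3 WSB/EiJ high-fat mice. Counts of called genes are therefore given with and without that library. In bulk tissue, fewer cells of a type and less RNA per cell cannot be told apart.

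On the standard diet, interferon response genes were lowest in CAST/EiJ and highest in NZO/HiLtJ. CAST/EiJ had the lowest mean of the 4 strains for 30 of the 36 genes, against 29.7% of all genes tested, and NZO/HiLtJ the highest mean for 29, against 26.8% of all genes. The median ratio of the standard-diet mean to that of C57BL/6J was 0.479 for CAST/EiJ, 0.814 for WSB/EiJ and 1.29 for NZO/HiLtJ. Over all genes tested these medians were 0.975, 0.971 and 0.995. All 3 CAST/EiJ standard-diet libraries lay below all 9 of the other strains for 26 genes (72.2%), a pattern seen in 12.7% of all genes. All 3 NZO/HiLtJ libraries lay above the other 9 for 16 genes (44.4%), against 10.6% of all genes. These are descriptions of the libraries, with no test.

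**Figure D1:**
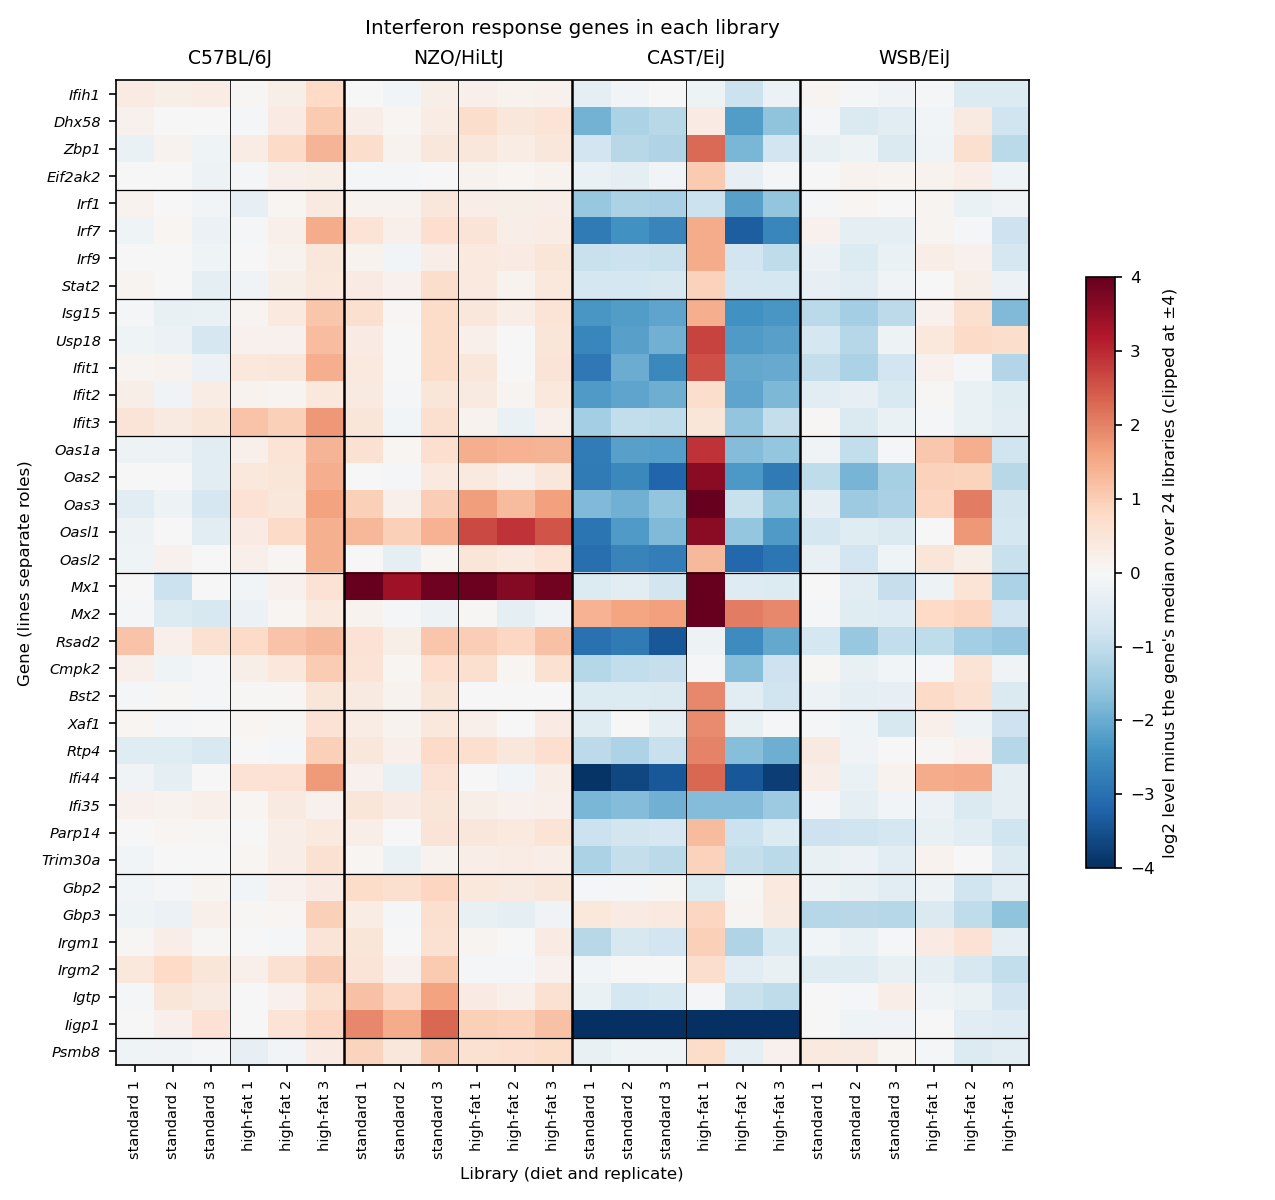
Level of each of the 36 interferon response genes (rows, grouped by role) in each of the 24 libraries (columns), as log2 of CPM plus 0.1 minus the gene's median over the libraries. CAST/EiJ columns are blue for most genes except its high-fat replicate 1, NZO/HiLtJ stands out for Mx1, and Iigp1 is at the bottom of the scale in all 6 CAST/EiJ libraries.

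Among the sensors and transcription factors, Irf1 and Irf7 separated the strains most clearly. Irf1 was at 108, 99.4 and 92.1 CPM in C57BL/6J standard-diet mice and at 78.5, 104 and 126 in high-fat mice. In NZO/HiLtJ it was at 108, 108 and 133, then 119, 116 and 119 CPM, and in WSB/EiJ at 93.8, 104 and 97.7, then 105, 82.4 and 89.3. In CAST/EiJ it was at 34.6, 40.7 and 39.7 CPM, then 54.0, 21.8 and 32.8. All 6 CAST/EiJ libraries lay below all 18 others, including the library with little adipocyte RNA. The log2 difference from C57BL/6J with both diets weighted equally was -1.44 ± 0.16 (SE, edgeR quasi-likelihood F test with Benjamini-Hochberg adjustment over 20035 genes, adjusted p = 1.028e-06). Without replicate 1 it was -1.64 ± 0.12.

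Irf7, which amplifies type I interferon production, was at 7.53, 9.95 and 8.54 CPM in CAST/EiJ on the standard diet. On the high-fat diet it was at 151, 5.38 and 8.88 CPM in that strain. Elsewhere its lowest library held 30.5 CPM (WSB/EiJ high-fat replicate 3) and its highest 152 CPM (C57BL/6J high-fat replicate 3). So 5 CAST/EiJ libraries lay below all others and 1 matched the highest value of the study. Irf9 and Stat2, partners in the same complex, behaved alike, with Irf9 at 25.8, 26.2 and 26.0 CPM in CAST/EiJ standard mice and 135, 28.3 and 23.6 in high-fat mice, against 30.03 to 67.4 elsewhere. Among the RNA sensors, Dhx58 (LGP2) was lower in CAST/EiJ than in C57BL/6J, with a log2 difference of -1.37 ± 0.34 (adjusted p = 0.003221), as was Ifih1, with one of -0.62 ± 0.14. Zbp1, a nucleic acid sensor of cell death, and Eif2ak2, the kinase that halts translation on double-stranded RNA, passed the test in no strain pair with all libraries. Without replicate 1 both were lower in CAST/EiJ than in C57BL/6J, with log2 differences of -1.52 ± 0.28 and -0.24 ± 0.08.

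Isg15, its protease Usp18 and the Ifit genes formed the second group, with the lowest levels in CAST/EiJ. Isg15 was at 2.45, 2.08 and 2.10 CPM in C57BL/6J standard mice, at 4.06, 2.67 and 4.36 in NZO/HiLtJ, at 0.426, 0.463 and 0.520 in CAST/EiJ and at 1.17, 0.929 and 1.18 in WSB/EiJ. The CAST/EiJ standard values rest on 24 to 32 counts per library. On the high-fat diet CAST/EiJ held 7.22, 0.391 and 0.431 CPM, so that 1 library was the highest of the 24 while the other 2 stayed within or below the range of the standard-diet mice. Across 5 CAST/EiJ libraries Isg15, Usp18 and Ifit1 stayed at or below 0.520, 0.520 and 0.843 CPM. The lowest library of any other strain was at 0.675 CPM for Isg15, 0.981 for Usp18 and 1.43 for Ifit1. Compared with C57BL/6J, Ifit3 was lower in CAST/EiJ (-1.67 ± 0.27) and WSB/EiJ (-1.14 ± 0.26), and Ifit2 in CAST/EiJ (-1.51 ± 0.34). Isg15 itself missed the threshold between CAST/EiJ and C57BL/6J with all libraries (-1.39 ± 0.55, adjusted p = 0.05316) and passed it without replicate 1 (-2.73 ± 0.34, adjusted p = 4.005e-06).

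The oligoadenylate synthetases, which activate the ribonuclease RNase L, were lowest in CAST/EiJ on the standard diet. Oas2 was at 20.6, 20.8 and 15.5 CPM in C57BL/6J, 20.95, 19.9 and 26.9 in NZO/HiLtJ, 2.86, 3.39 and 2.21 in CAST/EiJ and 10.1, 5.65 and 8.15 in WSB/EiJ on the standard diet. On the high-fat diet the same strains, in that order, held 28.0, 29.3 and 56.6, then 27.2, 23.9 and 28.2, then 255, 4.09 and 2.85, and finally 39.1, 38.7 and 9.52 CPM. The 2 remaining CAST/EiJ high-fat libraries were, like the standard-diet ones, below every library of the other strains. With all libraries 1 of the 5 synthetases, Oasl2, was called between CAST/EiJ and C57BL/6J (-1.85 ± 0.54). Without replicate 1 all 5 were lower, from -2.04 for Oas3 to -3.27 for Oasl2. Oasl1, a synthetase-like protein without the enzyme's activity, was at 8.20, 6.31 and 8.60 CPM in NZO/HiLtJ standard mice and 20.3, 24.5 and 18.6 in high-fat mice. It was at 2.38 to 8.75 CPM in C57BL/6J, 1.92 to 10.9 in WSB/EiJ and 0.337 to 1.04 in 5 CAST/EiJ libraries, and reached 39.99 CPM in CAST/EiJ high-fat replicate 1, above every NZO/HiLtJ library.

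Mx1 and Mx2 encode dynamin-like GTPases that block viruses, and each was high in a different strain. Many laboratory strains are known to carry a defective Mx1 gene. Mx1 was at 106, 67.3 and 95.0 CPM in NZO/HiLtJ standard mice and at 97.6, 80.9 and 92.6 in high-fat mice. In C57BL/6J it ran from 3.41 to 9.40 CPM and in WSB/EiJ from 2.54 to 9.24. In CAST/EiJ it was at 4.31, 4.63 and 3.72 CPM, then 116, 4.40 and 4.29, so the library that stands apart exceeded every NZO/HiLtJ value. The NZO/HiLtJ level was higher than that of C57BL/6J by 3.83 ± 0.64 log2 units (adjusted p = 0.0002543), and without the CAST/EiJ library its strain mean was 14.1 times the highest other mean. Mx2 showed the other pattern. It was at 2.38, 2.71 and 2.89 CPM in CAST/EiJ standard mice and 51.04, 3.82 and 3.51 in high-fat mice, above every one of the 18 other libraries, whose highest value was 1.62 CPM. Its log2 difference from C57BL/6J was 3.25 ± 0.53 with all libraries (adjusted p = 8.589e-05) and 2.05 ± 0.25 without replicate 1. Mx2 was thus the 1 gene of the 36 called higher in CAST/EiJ than in C57BL/6J in both edgeR fits. DESeq2 called 0 genes higher in this pair.

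Rsad2 (viperin), which makes an antiviral nucleotide, fell into 2 high and 2 low strains. Standard-diet levels were 25.7, 13.3 and 17.5 CPM in C57BL/6J, 17.3, 13.4 and 24.7 in NZO/HiLtJ, 1.37, 1.54 and 1.01 in CAST/EiJ and 7.06, 3.94 and 5.79 in WSB/EiJ. High-fat levels were 19.6, 25.3 and 28.4, then 22.8, 20.6 and 26.2, then 9.91, 1.94 and 2.72, and 5.67, 4.46 and 3.92 CPM. All 12 libraries of the first 2 strains lay above all 12 of the wild-derived strains. The log2 difference from C57BL/6J was -3.09 ± 0.33 in CAST/EiJ (adjusted p = 6.188e-07) and -2.07 ± 0.32 in WSB/EiJ (adjusted p = 9.222e-05). Cmpk2, a nucleotide kinase, is the neighbour of Rsad2 and was lower in CAST/EiJ, with a log2 difference of -1.19 ± 0.23. Bst2 (tetherin), which holds budding viruses at the cell surface, passed in no strain pair with all libraries and was lower in CAST/EiJ without replicate 1 (-0.67 ± 0.17).

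Among the other induced genes, Ifi35 and Ifi44 were lowest in CAST/EiJ. Ifi35 was at 6.11, 6.48 and 5.71 CPM on the standard diet and 6.45, 6.54 and 7.91 on the high-fat diet, and its level in replicate 1 was 0.893 of the mean of the other 2. In the other strains it ran from 14.6 CPM in WSB/EiJ to 30.9 CPM in NZO/HiLtJ, and the groups did not overlap. The difference from C57BL/6J was -1.93 ± 0.078 (adjusted p = 6.138e-13) in CAST/EiJ and -0.47 ± 0.075 in WSB/EiJ. Ifi44 was at 0.106, 0.149, 0.195, 0.196 and 0.129 CPM in 5 CAST/EiJ libraries, on 6 to 12 counts each, and at 15.3 CPM in replicate 1. No library of the other strains was below 2.25 CPM. Parp14, an ADP-ribosyltransferase, was lower in WSB/EiJ than in C57BL/6J (-0.77 ± 0.25, adjusted p = 0.02495), and Trim30a, a ubiquitin ligase family member with close copies, was lower in CAST/EiJ (-0.73 ± 0.25, adjusted p = 0.02586). Xaf1 passed in no pair with all libraries, and neither did Rtp4, a receptor transporter. Without replicate 1 Rtp4 was lower in CAST/EiJ than in C57BL/6J, with a log2 difference of -1.39 ± 0.23.

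The large GTPases held the strongest difference of all. Iigp1 (Irga6), which coats pathogen vacuoles, was at 0.213, 0.149 and 0.162 CPM in CAST/EiJ standard mice and at 0.0539, 0.509 and 0.259 in high-fat mice, on 4 to 26 counts per library. It was at 28.0, 32.4 and 42.7 CPM in C57BL/6J standard mice, 108, 79.0 and 140.1 in NZO/HiLtJ and 28.6, 25.0 and 25.5 in WSB/EiJ. The high-fat levels were 28.0, 41.2 and 49.96, then 54.9, 54.1 and 63.7, and 28.6, 20.8 and 19.7 CPM in the same 3 strains. The CAST/EiJ mean was 110.2-fold below the lowest other strain mean, and the log2 difference from C57BL/6J was -7.43 ± 0.34 (adjusted p = 4.564e-12). All 6 NZO/HiLtJ libraries exceeded the 18 others. NZO/HiLtJ was higher than C57BL/6J by 1.10 ± 0.25 and than WSB/EiJ by 1.68 ± 0.25.

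Gbp3 had a different strain order. It was at 21.6, 22.1 and 21.8 CPM in WSB/EiJ standard mice and 32.2, 23.7 and 15.6 in high-fat mice, below every other library, the lowest of which held 36.9 CPM. CAST/EiJ, at 65.2, 60.3 and 62.8 CPM and then 87.0, 52.3 and 61.7, was not low for this gene, and its difference from WSB/EiJ was 1.51 ± 0.19 (adjusted p = 3.937e-06). Gbp2 and Irgm2 were also lower in WSB/EiJ than in C57BL/6J, with log2 differences of -0.45 ± 0.12 and -1.15 ± 0.19. Gbp2 was higher in NZO/HiLtJ than in C57BL/6J (0.51 ± 0.12), as was Igtp (0.53 ± 0.19). Irgm1 was called between NZO/HiLtJ and CAST/EiJ alone among the pairs with all libraries (0.67 ± 0.26). Psmb8, the immunoproteasome subunit LMP7, was at 78.7, 58.2 and 89.7 CPM, then 65.4, 67.7 and 71.0, in NZO/HiLtJ and from 33.9 to 53.1 CPM in C57BL/6J, a difference of 0.82 ± 0.16 (adjusted p = 0.0008789).

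**Figure D2:**
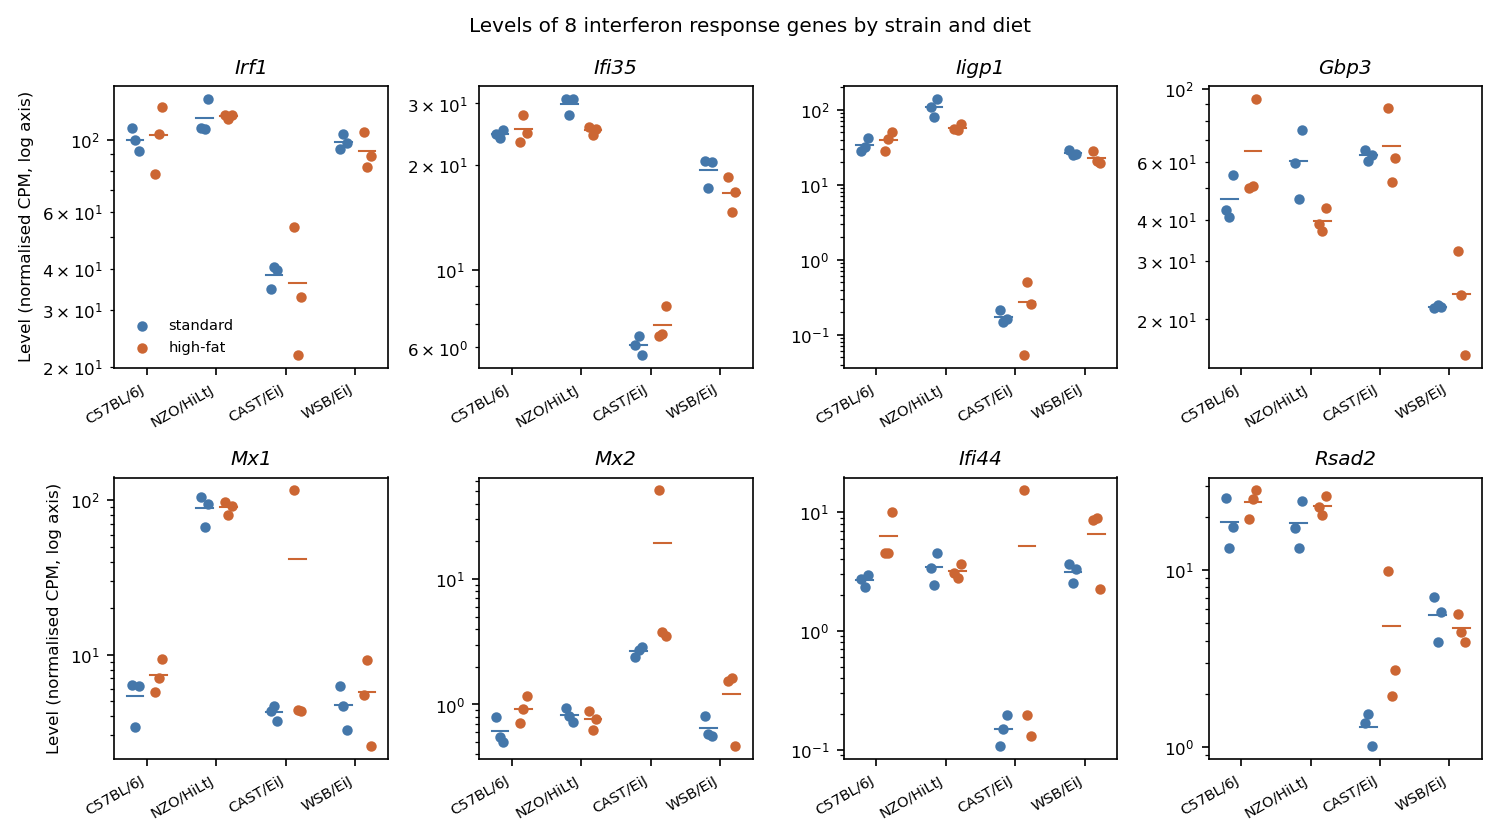
Level of 8 genes in each library on a log axis of CPM, by strain and diet, with points for the 3 mice of a group and a line at their mean. Iigp1 is at or below 0.509 CPM in CAST/EiJ, Mx1 is at 67.3 to 106 CPM in NZO/HiLtJ, and 1 CAST/EiJ high-fat point (replicate 1) lies far above its group for Mx1, Mx2, Ifi44 and Rsad2 but not for Ifi35.

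Counted over the list, the most calls between strains were made between NZO/HiLtJ and CAST/EiJ. A difference between any strains was called for 22 of the 36 genes (61.1%), below the 68.2% of all genes tested, and for all 36 without CAST/EiJ high-fat replicate 1, where 80% of all genes passed. NZO/HiLtJ exceeded CAST/EiJ for 22 genes and was below it for 1 (Mx2), while 25.1% and 26.1% of all genes were called in these directions. Without the library the counts were 34 and 1, against 29.8% and 28.2%. CAST/EiJ was above C57BL/6J for 1 gene and below it for 15, against 18.7% and 20.2% of all genes. Without the library it was above for 1 and below for 30, against 22.8% and 25.9%. The median log2 difference over the 36 genes was then -1.49 and that over all genes -0.05.

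The other pairs differed less. NZO/HiLtJ was above C57BL/6J for 5 genes (Mx1, Psmb8, Iigp1, Gbp2 and Igtp) and below for 0, against 11.9% and 11.5% of all genes, so the share of 13.9% was near the background. DESeq2 called 6 higher and 1 lower, and at an unadjusted p below 0.05 edgeR gave 6 and 1. Without the library the counts were 8 and 1 against 17.5% in each direction. WSB/EiJ was above C57BL/6J for 0 genes and below it for 8, against 13.2% and 16.4%. Without the library the counts were 0 and 15, against 21.5% and 21.3%. DESeq2 called 0 higher and 9 lower in this pair, and at an unadjusted p below 0.05 edgeR gave 0 higher and 10 lower. NZO/HiLtJ was above WSB/EiJ for 11 genes and below for 0, against 21.7% and 23.9%, and without the library for 27 and 0, against 25.6% and 31%. DESeq2 called 11 higher and 0 lower in this pair, and 13 and 0 had an unadjusted p below 0.05. CAST/EiJ was above WSB/EiJ for 4 genes and below for 7, against 17.3% and 18.1%, and without the library for 3 and 27, against 22.3% and 27.3%. All pairs share libraries and 1 estimate of the spread, so the counts are not independent.

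**Figure D3:**
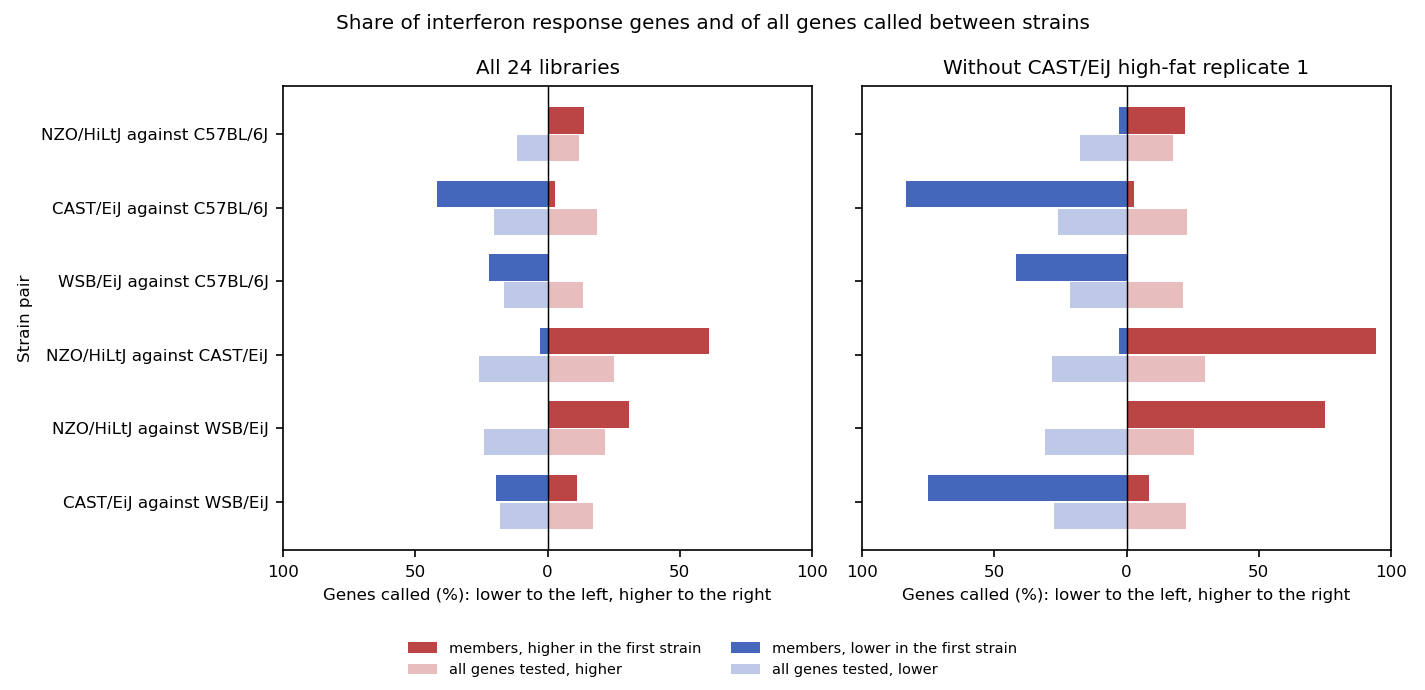
Share of the 36 interferon response genes (dark bars) and of all genes tested (pale bars) called higher (red, right) or lower (blue, left) in the first strain of each pair, with all 24 libraries and without CAST/EiJ high-fat replicate 1. Without that library 34 of 36 genes are higher in NZO/HiLtJ than in CAST/EiJ, against 29.8% of all genes.

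Markers of other cell types moved with strain as well. Summed endothelial markers (5 genes) ran from 158 to 313 CPM in CAST/EiJ, 395 to 527 in WSB/EiJ, 487 to 681 in C57BL/6J and 657 to 760 in NZO/HiLtJ. Macrophage markers (9 genes) ran from 491 to 1091 CPM in CAST/EiJ, 456 to 607 in WSB/EiJ, 975 to 1410.4 in C57BL/6J and 960.2 to 3424 in NZO/HiLtJ. The lowest endothelial and macrophage values of CAST/EiJ were both those of high-fat replicate 1. Siglech, a surface marker of plasmacytoid dendritic cells, which are strong producers of type I interferon, ran from 0.297 to 1.85 CPM in CAST/EiJ, 1.89 to 5.55 in WSB/EiJ, 6.69 to 12.7 in C57BL/6J and 5.11 to 15.7 in NZO/HiLtJ. The sum of all 6 markers of that cell type was 263 CPM in CAST/EiJ high-fat replicate 1 and 119 to 153 in the other libraries of that strain. It ran from 161 to 279 CPM in C57BL/6J, 190 to 215 in NZO/HiLtJ and 120 to 408 in WSB/EiJ. B cell markers (6 genes) summed to 0.812 to 1.67 CPM in CAST/EiJ and 7.28 to 29.9 in NZO/HiLtJ, and T and NK cell markers (11 genes) to 2.17 to 6.08 and 16.9 to 42.4. The order was not the same in every list. Granulocyte markers (4 genes) ran from 9.89 to 23.4 CPM in CAST/EiJ and 6.89 to 12.9 in C57BL/6J. They ran from 6.11 to 9.21 in WSB/EiJ and 15.5 to 38.4 in NZO/HiLtJ. Outside high-fat replicate 1, adipocyte markers ran from 17876 to 23966 CPM in CAST/EiJ. They ran from 8437 to 19022 in WSB/EiJ, 11095.5 to 17822 in C57BL/6J and 12350 to 19604 in NZO/HiLtJ. The part of all these markers in the strain differences was not tested. The processing notes name the reference builds NCBIM37 and mm9, but whether every strain was aligned to the same sequence is not given in the sources used here, so less RNA in a strain and fewer aligned reads from its sequence cannot be told apart. This touches the near-absence of Iigp1 in CAST/EiJ and on families with close copies (Ifit, Oas, Gbp, Irgm, Mx and Trim30).

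Within single strains the diet gave calls among these genes in CAST/EiJ alone when all libraries were used, and 1 library decided those. In C57BL/6J all 36 log2 fold changes were above 0, with a median of 0.42 against 0.02 over all genes, but 0 genes were called higher and 0 lower by edgeR, as by DESeq2. At an unadjusted p below 0.05 there was 1. The background was as low, with 0.00998% and 0% of all genes called, or 0.0932% and 0.00981% without CAST/EiJ high-fat replicate 1. In that fit 0 of the 36 were called by edgeR and 14, all higher, had an unadjusted p below 0.05. The share of all genes at that unadjusted threshold was not computed, so the 14 cannot be set against a background. The 3 high-fat mice lay above the 3 standard-diet mice without overlap for 15 of the 36 genes, against 5.27% of all genes. Oas1a, for instance, was at 9.56, 9.70 and 8.01 CPM on the standard diet and 12.7, 16.2 and 28.8 on the high-fat diet, and Ifi44 at 2.75, 2.33 and 2.95, then 4.53, 4.53 and 10.05. Replicate 3 of the high-fat group was above both others for 35 of the 36 genes, against 30.6% of all genes.

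In NZO/HiLtJ 0 genes passed in either direction with all libraries, where 2.95% and 1.94% of all genes were called. DESeq2 called 1 lower, and 5 genes, all lower, had an unadjusted p below 0.05. Without the CAST/EiJ library 0 were higher and 2 lower, against 6.16% and 5.49%. These were Igtp, at 58.2, 45.6 and 79.5 CPM on the standard diet and 32.4, 30.01 and 39.5 on the high-fat diet (-0.84 ± 0.22, adjusted p = 0.01762), and Iigp1, at 108, 79.0 and 140.1, then 54.9, 54.1 and 63.7 (-0.92 ± 0.23, adjusted p = 0.01411). Neither overlapped between the diets, but 23.8% of all genes lay wholly below in the same way and 22.7% wholly above, against 7 and 8 of the 36 genes. All 6 large GTPases had a log2 fold change below 0, with a median of -0.60, while all 5 oligoadenylate synthetases had one above 0, with a median of 0.82. Among them, Oas1a was at 30.5, 29.3 and 28.4 CPM in high-fat mice, against 17.0, 11.7 and 17.8 in standard-diet mice. Summed macrophage markers were higher on the high-fat diet, at 2646, 3424 and 2514 CPM against 1423, 960.2 and 1230.1, and their part was not tested.

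In CAST/EiJ 10 genes were called higher on the high-fat diet and 0 lower, against 3.27% and 1.6% of all genes. They were Usp18, Ifit1, Oas1a, Oas2, Oas3, Oasl1, Mx1, Mx2, Rsad2 and Ifi44, with adjusted p from 0.03812 (Oas2) to 0.04465 (Mx1). All of them rest on replicate 1. Without it 0 genes were called by edgeR in either direction, against 0.201% and 0.103% of all genes, and at an unadjusted p below 0.05 there were 2 higher and 2 lower. In that library Ifi44 was 94.2 times, Oas2 73.4 times and Oas3 59.5 times the mean of the other 2 high-fat mice. The large GTPases were divided, with Irgm1 at 3.56, Irgm2 at 2.11, Igtp at 1.89 and Gbp3 at 1.53 times, but Gbp2 at 0.587 and Iigp1 at 0.140 times. Ifi35 was at 0.893 times. Over the list, 33 of the 36 genes were higher there than in both others of its group, against 47.5% of all genes. With all libraries the high-fat group lay wholly above the standard-diet group for 3 genes (Oas1a, Mx2 and Rsad2), against 10.4% of all genes. Without replicate 1 the median log2 fold change over the 36 genes was 0.01.

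**Figure D4:**
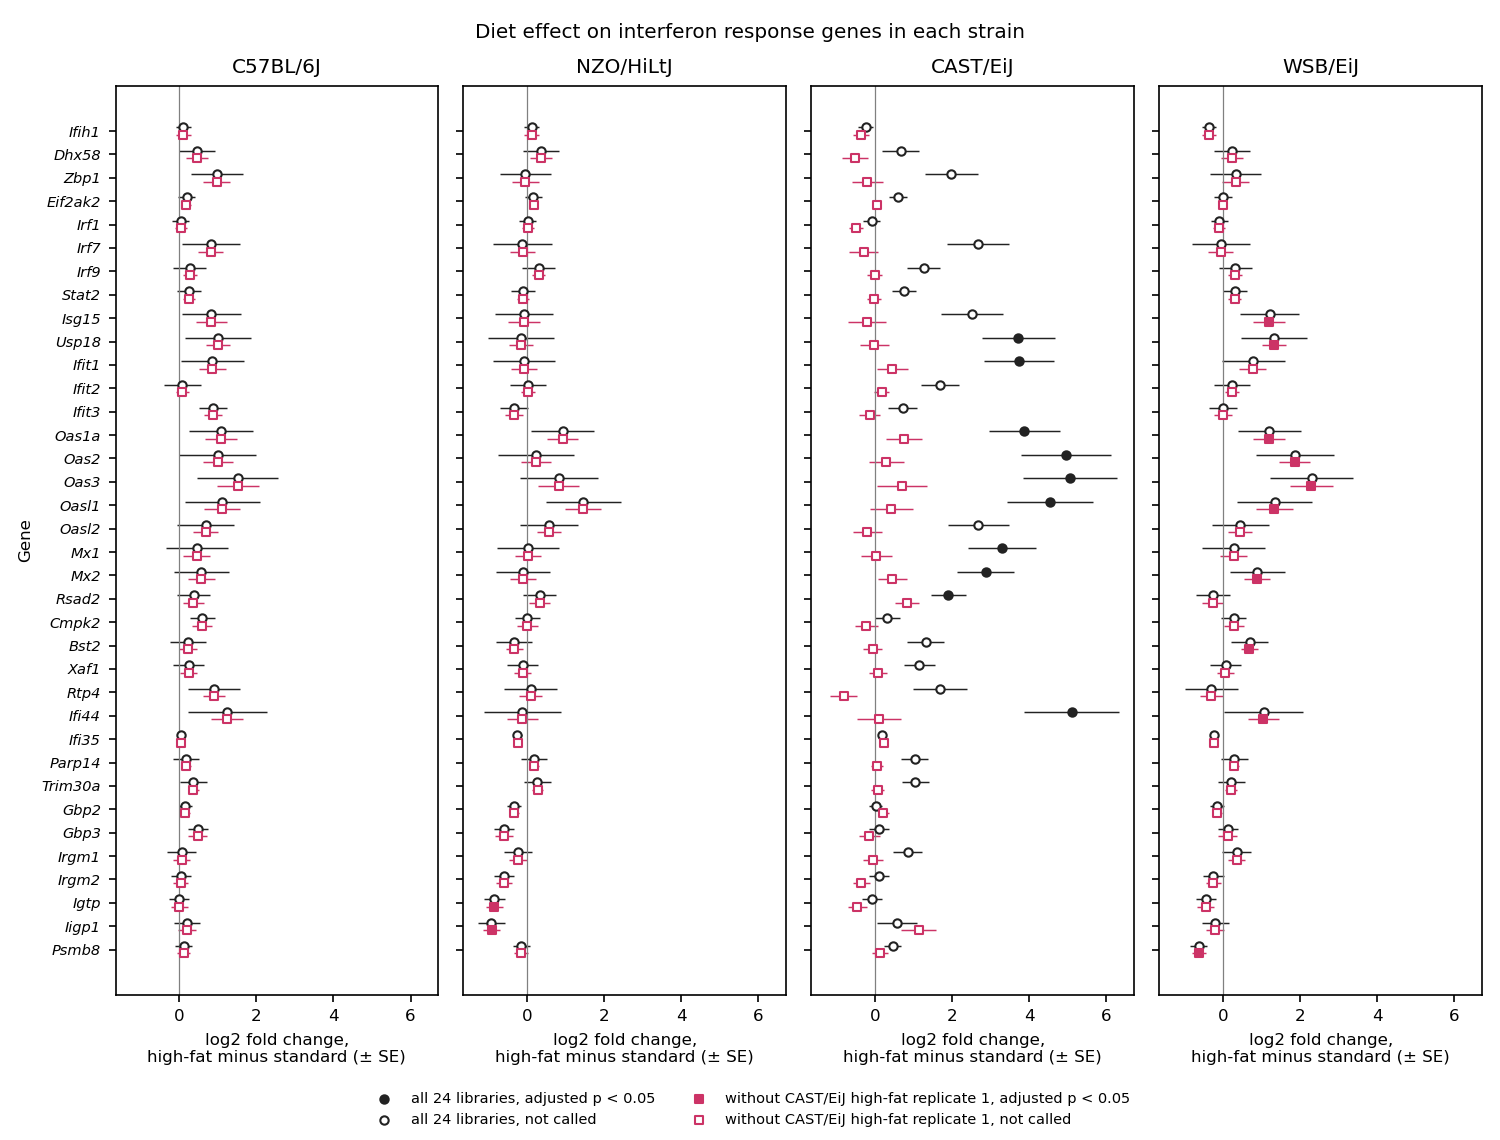
Log2 fold change (high-fat minus standard, bars ± SE) of each gene in each strain, from the fit with all 24 libraries (circles) and without CAST/EiJ high-fat replicate 1 (squares), filled where adjusted p was below 0.05. The 10 filled circles in CAST/EiJ have no filled square beside them, and 9 genes to the right of 0 and 1 to the left are filled squares in WSB/EiJ.

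In WSB/EiJ 0 genes passed in either direction with all libraries, against 12.9% and 8.61% of all genes. DESeq2 called 1 lower, and at an unadjusted p below 0.05 there were 1 higher and 2 lower. Without the CAST/EiJ library 9 genes were higher (Isg15, Usp18, Oas1a, Oas2, Oas3, Oasl1, Mx2, Bst2 and Ifi44) and 1 lower (Psmb8), against 21.8% and 17.9% of all genes. The share called higher was thus near the background and the share called lower was under it. The 3 high-fat mice differed among themselves. Oas1a was at 23.4, 30.7 and 6.41 CPM, against 10.1, 5.54 and 10.6 on the standard diet, and Ifi44 at 8.59, 8.88 and 2.25, against 3.68, 2.51 and 3.30. Replicate 3 was not above both others of its group for any of the 36 genes. Usp18, at 3.06, 3.95 and 3.73 against 1.34, 0.981 and 1.95, was the 1 gene whose high-fat mice were all above the standard-diet mice, and Psmb8, at 40.7, 29.2 and 30.8 against 55.99, 55.1 and 44.4, was wholly below, as was Igtp. Over all genes 18.4% lay wholly above and 21.6% wholly below, so these counts of 1 and 2 are under the background. Epithelial markers summed to 169, 250.4 and 704 CPM in these 3 high-fat libraries and smooth muscle markers to 1684, 1044 and 4958, and their part was not tested.

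Averaged over strains, 10 genes were called higher on the high-fat diet and 0 lower, against 17.1% and 11.8% of all genes. They were Isg15, Usp18, Ifit1, all 5 oligoadenylate synthetases, Mx2 and Ifi44. The largest was Oas3 at 2.42 ± 0.54 (adjusted p = 0.006796). Outside high-fat replicate 1, its levels in CAST/EiJ rest on 12 to 26 counts per library. Without the CAST/EiJ library 7 were higher and 2 lower, against 13.9% and 15%, and Oas3 was at 1.33 ± 0.28. Without all 6 libraries with Epcam at 5 CPM or more, which leaves 3 strains, 5 were higher and 0 lower (Oas1a, Oas2, Oas3, Oasl1 and Trim30a), against 6.42% and 5.9% of all genes. The diet effect was not shown to differ between strains with all libraries, since 0 genes passed the interaction test of edgeR, against 3.08% of all genes, with 9 at an unadjusted p below 0.05 and 2 called by DESeq2. Without the CAST/EiJ library 2 passed, against 17.6% of all genes. They were Iigp1 and Rtp4. The diet change of Iigp1 was -0.92 ± 0.23 in NZO/HiLtJ and 0.21 ± 0.23 in C57BL/6J. The test also takes in CAST/EiJ, where Iigp1 was at 0.213, 0.149 and 0.162 CPM on the standard diet. The remaining high-fat libraries of that strain were at 0.509 and 0.259 CPM, on 26 and 12 counts. The diet change of Rtp4 was 0.91 ± 0.29 in C57BL/6J and -0.81 ± 0.34 in CAST/EiJ.

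In some groups most of the genes were highest in the same mouse, and in others they were not. In C57BL/6J standard mice 12, 16 and 8 genes were highest in replicates 1, 2 and 3, in CAST/EiJ standard mice 4, 15 and 17, and in WSB/EiJ standard mice 19, 7 and 10. Replicate 3 of NZO/HiLtJ on the standard diet was above both others for 33 of the 36 genes, against 30.5% of all genes, and replicate 2 for 0. Replicate 1 of C57BL/6J on the high-fat diet was above both others for 0 genes, against 35.6%. The median of the genes' log2 ratios to the other 2 mice of the group was 0.57 in replicate 3 of C57BL/6J high-fat, 0.32 in replicate 3 of NZO/HiLtJ standard and -0.83 in replicate 3 of WSB/EiJ high-fat. Over all genes these medians were between -0.042 and -0.0045. In C57BL/6J high-fat replicate 3, Irf7 was at 152 CPM and the other 2 mice at 51.7 and 62.7.

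Other genes of the pathway were taken from 2 lists. Of 27 genes of interferon signalling 26 were in the table and 22 were tested. The ligands Ifna2 and Ifna4 had 0 counts in every library, which allows up to 0.063 CPM in the shallowest, Ifnb1 did not exceed 0.0216 CPM and Ifng, the ligand of the gamma receptor, did not exceed 0.108 CPM. The receptor subunits were present throughout, with Ifnar1 at 46.9 to 95.2 CPM and Ifngr1 at 27.5 to 99.3. Between CAST/EiJ and C57BL/6J 1 signalling gene was higher (Tbk1, a kinase upstream of Irf3, 0.22) and 9 were lower, led by Irf8, a factor of myeloid and dendritic cells (-1.55), Irf5, a factor downstream of Toll-like receptors (-0.92), and the DNA sensor Tlr9 (-1.59). Of all genes, 18.7% and 20.2% were called in these directions. Without the library the signalling genes gave 2 and 14, against 22.8% and 25.9% of all genes. Between NZO/HiLtJ and C57BL/6J 7 were higher, led by Irf8 (1.42), Irf5 (0.76) and Ifnar1 (0.40), and 1 was lower, the adaptor Mavs (-0.34). The shares of all genes were 11.9% and 11.5%. On the high-fat diet Irf5 (1.24) and Tlr7 (0.91) rose in NZO/HiLtJ, while Mavs (-0.47) and Ifnar2 (-0.54) fell in WSB/EiJ. Of all genes, 2.95% were called higher in NZO/HiLtJ and 8.61% lower in WSB/EiJ.

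Of 73 further interferon-induced genes 71 were in the table and tested. Between CAST/EiJ and C57BL/6J 2 were higher (Mov10, 0.40, and Parp10, 0.32) and 39 lower, against 18.7% and 20.2% of all genes. Trim12a was at -2.97, Gm4951 at -3.84 and the chemokine Ccl5 at -4.04. Without the library 4 were higher and 51 lower, against 22.8% and 25.9%, and the list's median log2 difference was -1.02. NZO/HiLtJ was above CAST/EiJ for 37 and below for 8, against 25.1% and 26.1% of all genes. Without the library it was 52 and 6, against 29.8% and 28.2%. Slfn5 (2.08), Ccl5 (5.38) and Cxcl10 (3.99) led, with Isg20 (-1.11), Ifi205 (-2.17) and Parp10 (-0.47) in the other direction. Against C57BL/6J, NZO/HiLtJ was higher for 9 and lower for 10, near the background of 11.9% and 11.5% of all genes. Without the library it was 19 and 15, against 17.5% in each direction. This list was thus not one-sided there. Slfn5 (1.43), Cxcl10 (1.51) and Mlkl (0.66) were higher, and Trim12a (-1.78), Ifi203 (-1.07) and Isg20 (-0.86) lower. WSB/EiJ was above C57BL/6J for 1 (Gbp8, 0.81) and below for 28, against 13.2% and 16.4% of all genes. Without the library it was 3 and 47, against 21.5% and 21.3%. On the high-fat diet Gbp8 (-1.36) and Gbp7 (-0.68) fell in NZO/HiLtJ, the same direction as Igtp and Iigp1. In that comparison 1.94% of all genes were called lower. In WSB/EiJ Slfn9 rose (2.42) and 6 fell, led by Parp10 (-0.77) and the proteasome activator subunits Psme1 (-0.45) and Psme2 (-0.60). With 12.9% of all genes called higher and 8.61% lower there, these counts of the 71 genes are no more than the background.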

How the data were processed

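RNA-seq of poly(A) RNA from inguinal fat was analysed in 24 mice, grouped by the strain and diet in the labels. The estimated counts per gene deposited by the authors, which need not be whole, were made with RSEM 1.2.1 and Bowtie 0.12.8, per the submitters' processing notes, which also name the builds NCBIM37 and mm9 without saying how each strain was aligned. A second deposited table, scaled to upper quartiles, was not used. Counts were rounded to whole numbers. Of 37991 genes, 20035 passed edgeR's filter by group, and the genes were matched to symbols by identifier. edgeR 4.0.16 (R 4.3.3) fitted 1 mean per group over all libraries, with TMM scaling and 16 residual degrees of freedom. Its quasi-likelihood F test was adjusted by Benjamini-Hochberg over all genes tested, and a call means an adjusted p below 0.05. Counts at an unadjusted p below 0.05 cover the listed genes only and have no share of all genes beside them. Strain differences weight both diets equally, and the SE is the log2 fold change divided by the root of F. The script was tested on simulated data. With 3 mice a group, p-values set a difference against a spread between mice that is estimated over all groups together. Leaving out 1 library can therefore change the calls in other strains.

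Alternatives were size factors by relative log expression, no filter, DESeq2 1.42.0, single diets, leaving out each library, and leaving out 6 libraries in which Epcam reached 5 CPM. In each comparison up to 4 called genes per direction with the smallest adjusted p were picked for description, though not every log2 difference is printed. Genes low or high in a whole strain were added, and from the other pathway genes up to 3 per direction. Other genes of the list are named to account for every member. The genes, lists and tests were chosen with earlier results of these data known. One gene of the signalling list is not reported here by name.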

Additional observations from a re-analysis of the deposited data

Results flagged for a closer look

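The diet effect differed between strains by the interaction test of edgeR for Iigp1 and Rtp4 once CAST/EiJ high-fat replicate 1 was left out, with adjusted p of 0.0242 for Iigp1 and 0.0482 for Rtp4. With all libraries neither passed. The Iigp1 values in CAST/EiJ rest on 4 to 26 counts per library.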

How the results depend on the processing

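The 38 effects with the smallest adjusted p, up to 4 per direction in each comparison, fell on 16 genes. They kept their sign in every alternative that could be run for them. Over these effects and alternatives, 1024 results still passed the threshold and 79 did not. The effects were picked by adjusted p in these same data, and most alternatives drop 1 library, so a kept sign was likely beforehand. Other effects changed sign. Leaving out CAST/EiJ high-fat replicate 1 took the positive diet changes in CAST/EiJ from 33 to 18 of 36, and the median of the 4 transcription factors there from 1.00 to -0.16. The counts of genes called depended most on CAST/EiJ high-fat replicate 1, and the cause was not tested. Leaving out each library in turn gave 0 to 2 called genes for the diet in NZO/HiLtJ, 0 to 26 in CAST/EiJ, 0 to 10 in WSB/EiJ and 7 to 21 averaged over strains. For CAST/EiJ 13 of the 24 left-out libraries gave 0. The 26 and the 21 came without its high-fat replicate 2. The same step gave 0 to 2 for the interaction, 18 to 36 for any strain difference, 4 to 9 for NZO/HiLtJ and 12 to 31 for CAST/EiJ, each against C57BL/6J, and 7 to 15 for WSB/EiJ against C57BL/6J. It gave 19 to 35 for NZO/HiLtJ against CAST/EiJ, 10 to 27 for NZO/HiLtJ against WSB/EiJ and 9 to 30 for CAST/EiJ against WSB/EiJ. The highest strain counts all came without CAST/EiJ high-fat replicate 1. For the diet in C57BL/6J every left-out library gave 0.

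DESeq2 called 1 gene for the diet in NZO/HiLtJ, 18 in CAST/EiJ (8 of the 10 called by edgeR among them), 1 in WSB/EiJ and 2 for the interaction. Without a filter the diet in CAST/EiJ gave 2, and with size factors by relative log expression WSB/EiJ gave 1. Without the 6 in which Epcam reached 5 CPM there were 7 for the diet in NZO/HiLtJ, 0 in CAST/EiJ, 5 averaged over strains, 4 for the interaction and 35 for any strain difference. The same setting gave 11 for NZO/HiLtJ and 33 for CAST/EiJ against C57BL/6J, and 35 between NZO/HiLtJ and CAST/EiJ. Of all genes, 10.8% were then called higher and 10.1% lower for the diet in NZO/HiLtJ. The 36 genes gave 2 and 5, near that background. The shares were 6.92% for the interaction and 75% for any strain difference. NZO/HiLtJ was above C57BL/6J for 9 and below for 2, against 21.7% and 20.9%. CAST/EiJ was above C57BL/6J for 1 and below for 32, against 26.7% and 28.6%. NZO/HiLtJ was above CAST/EiJ for 34 and below for 1, against 33.6% and 32.5%. This setting leaves no WSB/EiJ high-fat library, so comparisons that need one were not run. With high-fat groups only, NZO/HiLtJ and CAST/EiJ against C57BL/6J gave 3 and 10, NZO/HiLtJ against CAST/EiJ 10 and CAST/EiJ against WSB/EiJ 7. With standard-diet groups only, WSB/EiJ against C57BL/6J gave 4. For single diets, DESeq2, no filter and relative log expression, the share of all genes called was not computed. Nor was it for left-out single libraries other than CAST/EiJ high-fat replicate 1. Counts from those alternatives therefore cannot be set against a background. No paired analysis was possible because each mouse belonged to 1 strain and ate 1 diet. The labels carry no replicate numbers, and those used here follow the order of the samples within each group. Depth limits Iigp1, Ifi44, Isg15, Usp18, Oas3, Ifit1 and Oasl1 in CAST/EiJ, where levels rest on few counts. In high-fat replicate 1 this holds for Iigp1 alone.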
